A study of Mus musculus with 12 samples.

Results

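Frontal cortex of mice labelled as conditional Hdac2 knockouts was compared with wild-type cortex over both treatments given in the study. Of 17286 genes with enough counts to be tested, 1771 (10.2%) differed between the genotypes by edgeR's quasi-likelihood test on the average of both treatments, at a Benjamini-Hochberg (BH) adjusted p under 0.05, with a difference of the same sign under vehicle and under clozapine. These genes are described here: 938 were higher in the labelled knockout (5.43% of tested genes) and 833 lower (4.82%). Whatever their sign under each treatment, 955 genes were called higher (5.52%) and 866 lower (5.01%).

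RNA was sequenced from 12 libraries of bilateral frontal cortex, labelled prefrontal cortex, of male C57BL/6 mice, 3 in each of 4 groups. Wild-type mice given vehicle (numbers 1, 3 and 4) or clozapine at 10 mg/kg (numbers 2, 3 and 5) were set against mice of the genotype HDAC2(loxP,loxP), CamKIIa-Cre(+,-), given vehicle (numbers 2, 4 and 5) or clozapine (numbers 3, 4 and 5). Dosing was chronic, and the drug is an antipsychotic with many targets among monoamine and muscarinic receptors. Each genotype is thus 6 libraries, 3 with drug and 3 without. The CamKIIa promoter drives the recombinase Cre in excitatory neurons of the forebrain, while the RNA is that of the whole tissue, so cells that keep Hdac2 are included. The labels do not say whether the wild-type mice carried loxP alleles or Cre, so loss of Hdac2, the loxP alleles and Cre cannot be told apart. Age, litter and hour of dissection are not given, and the labels identify animals only by group and number, so a p-value here reflects only how far these libraries vary, which may be technical. In bulk tissue, fewer cells of a type and less RNA per cell cannot be told apart.

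HDAC2 is a histone deacetylase: it removes acetyl groups from histone tails, mostly within large co-repressor complexes such as NuRD, Sin3 and CoREST, where it works beside HDAC1. Acetylated histones mark active promoters and enhancers, and deacetylases are recruited to keep genes low or to reset them after induction. In neurons HDAC2 is known for its place at genes of synapses and of memory.

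Hdac2 transcripts did not separate the genotypes. Hdac2 was at 63.4 to 75.7 CPM in wild type (median 72.9) and at 70.5 to 76.6 CPM in the labelled knockout (median 73.6), and the ranges overlapped. The difference averaged over treatments was 0.03 (SE 0.04, edgeR adjusted p = 0.65) on the log2 scale. CPM are counts scaled to library size, here after TMM, a correction of that size for composition. Counts cover the whole gene, including exons outside a deleted stretch, so they do not check a deletion, and directions below rest on the genotype as labelled. Total counts were 23408372 to 28069638 per library. On the first principal component, which held 20.3% of the variance, wild-type libraries lay at -19.83 to -8.504 and labelled knockout libraries at 8.492 to 18.05.

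The genes of largest difference were low in wild-type cortex and several times higher in the labelled knockout. Lbhd2 was at 0.293 to 0.423 CPM in wild type (median 0.389) and at 2.67 to 3.998 CPM in the labelled knockout (median 3.31). Lbhd2 (ENSMUSG00000087075.1, chromosome 12, 111406809 to 111412090, GRCm38), which encodes a protein with an LBH domain, had the largest log2 difference, 3.13 (SE 0.15, edgeR adjusted p = 1.8e-09). Ppm1j was at 0.588 to 0.884 CPM in wild type (median 0.777) and at 2.84 to 3.79 CPM in the labelled knockout (median 3.09). Ppm1j, a serine/threonine phosphatase of the PP2C family, differed by 2.05 (SE 0.13, edgeR adjusted p = 1.4e-07). Stag3 was at 0.543 to 1.08 CPM in wild type (median 0.752) and at 1.903 to 5.47 CPM in the labelled knockout (median 2.99). Stag3, the cohesin subunit known from meiosis, differed by 2.03 (SE 0.18, edgeR adjusted p = 6.3e-06). For each of these 3 genes every labelled knockout library lay above every wild-type library, and the difference was nearly equal under both treatments: 3.31 under vehicle and 2.94 under clozapine for Lbhd2, 1.98 under vehicle and 2.13 under clozapine for Ppm1j and 1.98 under vehicle and 2.07 under clozapine for Stag3.

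A further 8 genes with large rises and a mean above 1 CPM also had every labelled knockout library above every wild-type library. Aldh3b2, an aldehyde dehydrogenase, differed by 1.49 (SE 0.17, edgeR adjusted p = 9.4e-05), with 0.798 to 1.71 CPM (median 1.02) in wild type and 2.16 to 4.45 CPM (median 3.496) in the labelled knockout. Tmem40, a membrane protein, was at 0.718 to 1.43 CPM (median 0.9595) in wild type and 2.06 to 4.15 CPM (median 2.77) in the labelled knockout, a log2 difference of 1.47 (SE 0.17, edgeR adjusted p = 6.4e-05). Gldn, the adhesion protein gliomedin of nodes of Ranvier, differed by 1.36 (SE 0.20, edgeR adjusted p = 0.00053). Slc22a3, an organic cation transporter that carries monoamines, differed by 1.15 (SE 0.18, edgeR adjusted p = 0.0011) and Lct, the enzyme lactase, by 1.16 (SE 0.20, edgeR adjusted p = 0.0024). A potassium channel gene, Kcna5, differed by 1.13 (edgeR adjusted p = 0.0068). The cytolinker gene Ppl differed by 1.19 (edgeR adjusted p = 0.0011), and Igsf1, an immunoglobulin superfamily member, by 1.13 (edgeR adjusted p = 0.0015). All 8 were low: their labelled knockout medians lay between 1.58 CPM for Ppl and 4.65 CPM for Lct. A low level was common among genes with large rises. Of the 256 higher genes with a log2 difference over 0.5, 223 had a mean under 10 CPM.

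**Figure D1:**
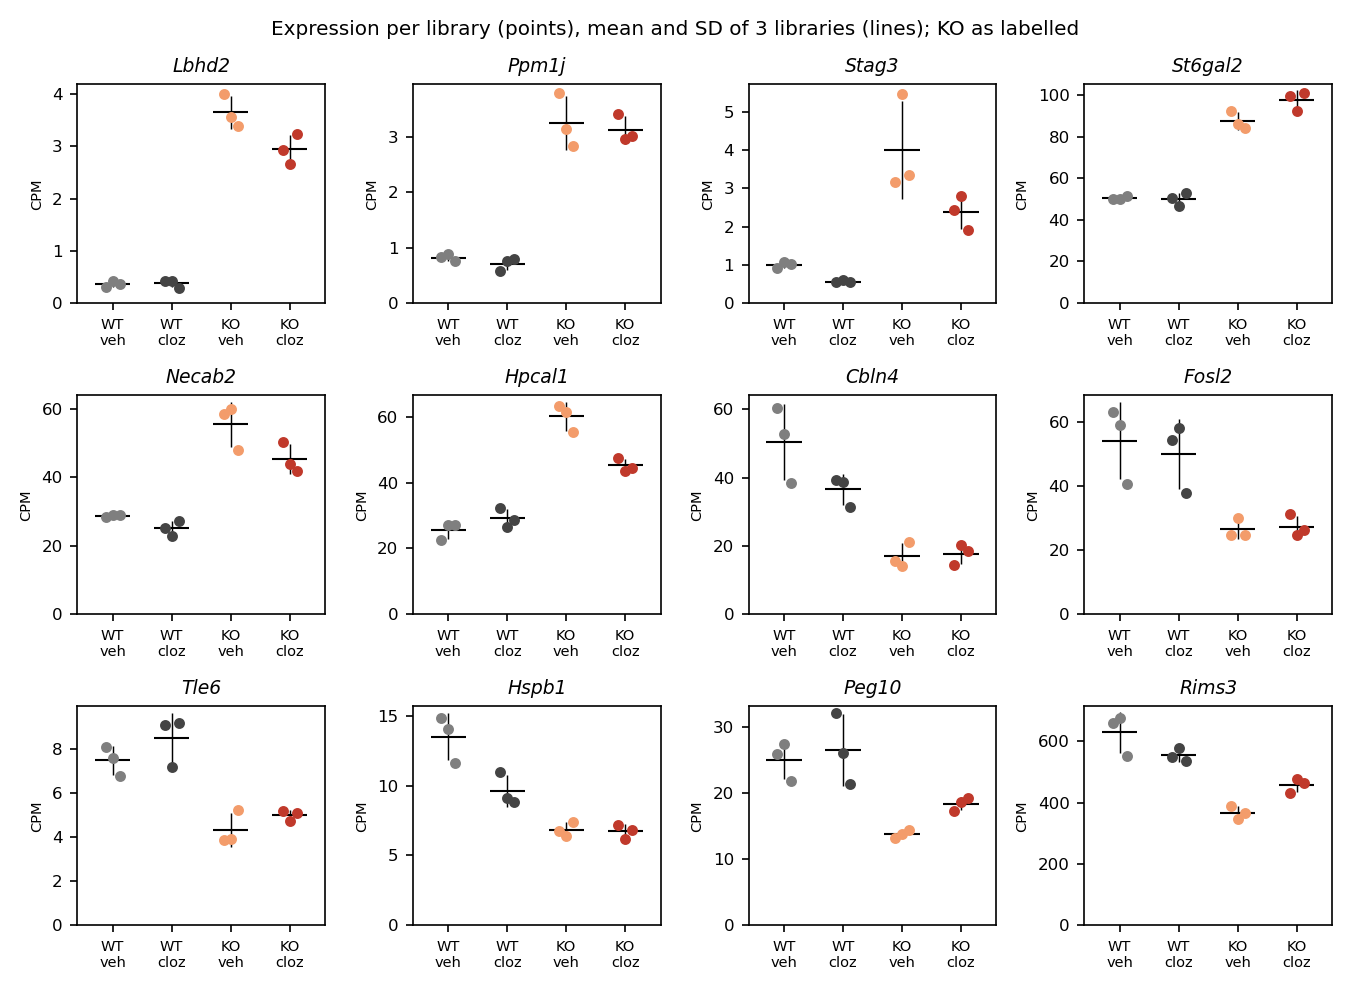
Expression in CPM (y axis, from 0) of 12 genes in each library (points) by group, with the mean and SD of the 3 libraries of a group as lines (WT, wild type; KO, labelled knockout; veh, vehicle; cloz, clozapine). In each panel all 6 labelled knockout points lie on 1 side of all 6 wild-type points: above for Lbhd2, Ppm1j, Stag3, St6gal2, Necab2 and Hpcal1, and below for Cbln4, Fosl2, Tle6, Hspb1, Peg10 and Rims3.

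Genes of higher expression also rose, some without overlap between libraries. The genes of this paragraph were chosen after their values were seen. St6gal2 was at 46.9 to 52.7 CPM in wild type (median 50.2) and at 84.01 to 101 CPM in the labelled knockout (median 92.3). St6gal2 (ENSMUSG00000024172.10, chromosome 17, 55445382 to 55514581), a sialyltransferase of brain glycans, rose by 0.88 (SE 0.04, edgeR adjusted p = 1.8e-09). Hpcal1 was at 22.4 to 32.1 CPM in wild type (median 27.1) and at 43.6 to 63.4 CPM in the labelled knockout (median 51.4). Hpcal1, a neuronal calcium sensor, rose by 0.93 (SE 0.06, edgeR adjusted p = 1.4e-07), and its rise was larger under vehicle (1.23 under vehicle and 0.64 under clozapine). Necab2, a calcium-binding protein of neurons, was at 22.7 to 28.9 CPM (median 27.7) in wild type and 41.7 to 59.9 CPM (median 49.1) in the labelled knockout, and differed by 0.90 (SE 0.06, edgeR adjusted p = 7.4e-07). The polo-like kinase gene Plk5 rose by 0.995 (edgeR adjusted p = 6.4e-05). Among strongly expressed genes, Nptxr, the neuronal pentraxin receptor, was at 874 to 1114 CPM (median 1011) in wild type and 1230.0 to 1470.0 CPM (median 1358) in the labelled knockout and rose by 0.44 (SE 0.05, edgeR adjusted p = 5.3e-05). Uchl1, a neuronal ubiquitin hydrolase, rose by 0.31 (edgeR adjusted p = 0.0002) and Slc30a3, the zinc transporter of synaptic vesicles, by 0.30 (edgeR adjusted p = 0.00048). For none of these 7 genes did the genotypes overlap.

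Among lower genes with a mean of at least 1 CPM, predicted genes left aside, Cbln4 had the largest fall without overlap between genotypes. Cbln4 was at 31.4 to 60.3 CPM in wild type (median 39.1) and at 14.2 to 21.2 CPM in the labelled knockout (median 17.1). Cbln4 (ENSMUSG00000067578.3, chromosome 2, 172036233 to 172043466), a secreted synapse organiser of the cerebellin family, fell by a log2 difference of -1.30 (SE 0.15, edgeR adjusted p = 0.00091), with -1.56 under vehicle and -1.04 under clozapine. Fosl2 was at 37.7 to 62.9 CPM in wild type (median 56.2) and at 24.5 to 31.1 CPM in the labelled knockout (median 25.4). Fosl2, an AP-1 transcription factor, differed by -0.96 (SE 0.15, edgeR adjusted p = 0.004). Tle6, a relative of the Groucho co-repressors, was at 6.78 to 9.195 CPM (median 7.85) in wild type and 3.88 to 5.23 CPM (median 4.91) in the labelled knockout, a difference of -0.77 (SE 0.10, edgeR adjusted p = 0.00014). Peg10 was at 21.3 to 32.1 CPM in wild type (median 25.9) and at 13.1 to 19.2 CPM in the labelled knockout (median 15.8). Peg10, an imprinted gene derived from a retrotransposon, differed by -0.70 (SE 0.09, edgeR adjusted p = 0.00032). Synj2, a phosphoinositide phosphatase, was at 116 to 164 CPM (median 142) in wild type and 78.8 to 108 CPM (median 92.9) in the labelled knockout, a difference of -0.59 (SE 0.06, edgeR adjusted p = 4.1e-05). In none of these genes did a labelled knockout library reach the lowest wild-type library, which was a condition of their choice.

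The rest of the 12 largest falls without overlap ranged from -0.75 for Hspb1 to -0.54 for Cd93. Hspb1 and Nfil3 are described below with their lists. The metalloprotease gene Adam8 differed by -0.74 (edgeR adjusted p = 0.0044), the amine oxidase gene Aoc2 by -0.72 (edgeR adjusted p = 0.0023) and Cd93, a receptor of endothelial and myeloid cells, by -0.54 (edgeR adjusted p = 0.0019). Zbtb40, a zinc finger gene, differed by -0.62 (SE 0.08, edgeR adjusted p = 0.00012), with -1.01 under vehicle and -0.24 under clozapine. Tm6sf2, a gene of lipid handling, was close to 1 CPM and differed by -0.62 (edgeR adjusted p = 0.023). It passed in 8 of the 12 tests that each left out 1 library, missing without wild-type libraries vehicle 4 and clozapine 3 or knockout libraries vehicle 2 and clozapine 5 (highest edgeR adjusted p = 0.061). Among strongly expressed genes, chosen after their values were seen, Rims3, a presynaptic active zone protein, was at 535 to 676 CPM (median 567) in wild type and 346 to 477 CPM (median 411) in the labelled knockout, and fell by a log2 difference of -0.53 (SE 0.05, edgeR adjusted p = 1.7e-05). Fmnl1, a formin that organises actin, fell by a log2 difference of -0.53 (SE 0.05, edgeR adjusted p = 4.1e-05). Exons of Synj2, Adam8 and Mfsd8 overlap those of a gene on the other strand, and whether counting used strand is not given in the sources used here, so their values are uncertain to that extent.

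Higher and lower genes differed in size of change and in overlap. The median log2 difference was 0.31 among the 938 higher genes and -0.23 among the 833 lower ones, and -0.0033 over all tested genes. A difference over 1 on the log2 scale was seen for 57 higher and 13 lower genes. All 6 labelled knockout libraries lay outside the wild-type range, in the direction of the change, for 396 higher (42.2%) and 236 lower genes (28.3%). Of all tested genes 4.04% had no overlap, 2.48% with the labelled knockout above and 1.57% with it below. The test that chose the 1771 genes used the same libraries and favours such separation, so these shares are no separate result about them. Of the 1771 genes, 948 passed in each of 12 tests that left out 1 library, 541 higher and 407 lower. Without knockout clozapine 3 the number past the threshold with the same sign was 1124. The genes nearest the threshold were Zfp827 inside it (log2 difference 0.13, edgeR adjusted p = 0.0498) and A730060N03Rik outside it (-0.36, edgeR adjusted p = 0.050025).

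The difference was more often the larger under vehicle. Among the 1771 genes it was larger in size under vehicle for 1154 and under clozapine for 617, with median sizes of 0.31 and 0.22 on the log2 scale. Over all tested genes the median sizes were 0.12 and 0.10. A test of the difference between treatments, the interaction, passed for 113 tested genes (0.654%) and for 32 of the 1771, of which 27 had the larger difference under vehicle and 5 under clozapine. Taken alone, 1584 genes (9.16%) passed under vehicle and 345 (2.0%) under clozapine, from libraries that the other contrast does not share. The vehicle count was 617 without wild-type vehicle 3, 837 without knockout vehicle 2, 943 without knockout vehicle 5 and 954 without wild-type vehicle 1. The clozapine count was 59, 197 and 165 when knockout clozapine 3, 4 and 5 were left out in turn, and 126 and 192 when wild-type clozapine 3 and 5 were. Of the 1584, 1206 (76.1%) had the same sign under clozapine, and of the 345, 286 (82.9%) had the same sign under vehicle, where 59.3% of all tested genes had. Of the 1771, 1011 passed under vehicle, 282 under clozapine and 619 under neither treatment alone.

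**Figure D2:**
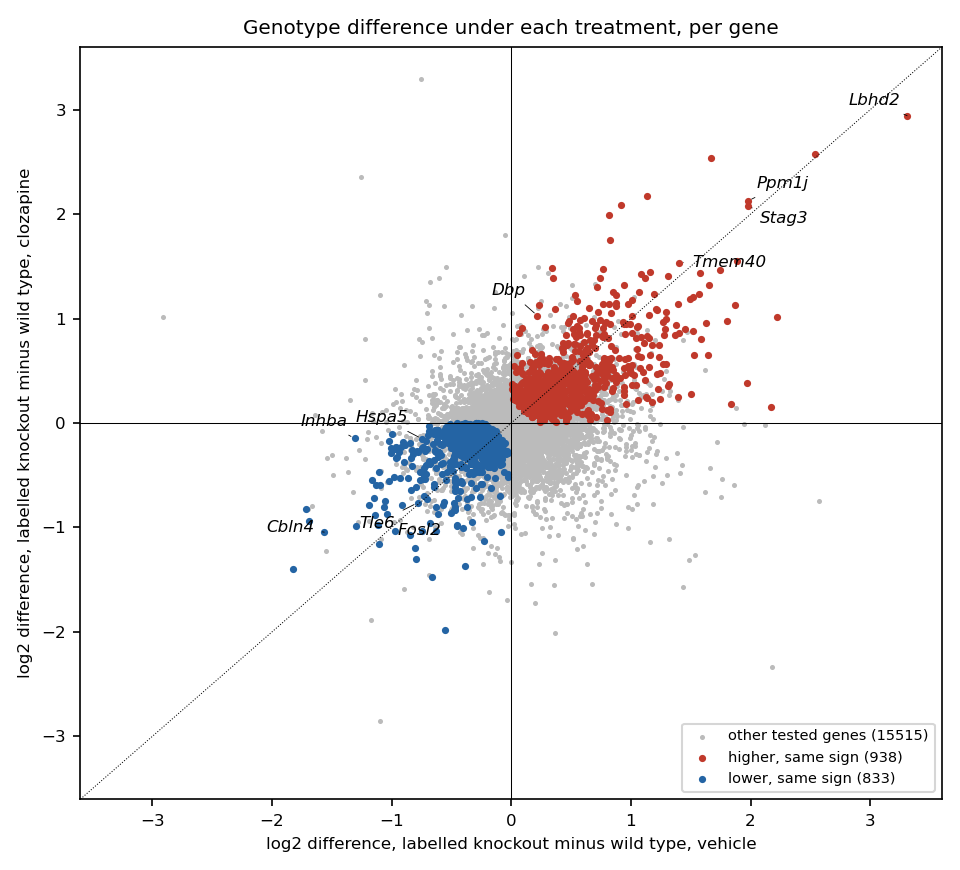
Log2 difference between labelled knockout and wild type under vehicle (x axis) and under clozapine (y axis) for 17286 tested genes, each a point. Red, 938 higher genes; blue, 833 lower genes; grey, the other tested genes; dotted line, equal differences. The coloured genes lie in the upper right and lower left by the rule that chose them, Lbhd2, Ppm1j and Stag3 lie near the dotted line, and Dbp, Inhba and Hspa5 lie away from it.

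A subset of 141 genes (0.816% of tested genes) passed under each treatment taken separately with the same sign, 119 higher and 22 lower. They are 8.90% of the genes called under vehicle and 40.9% of those called under clozapine, and 8 further genes passed in both with opposite signs. In 135 of the 141 the 6 libraries of 1 genotype did not overlap the other 6, as in 4.04% of all tested genes. Passing under each treatment with the same sign favours such separation, so the count is no separate result about these genes. Without knockout clozapine 3 the subset held 34 genes, without wild-type clozapine 3 it held 59, without wild-type vehicle 3 it held 76 and without knockout clozapine 5 it held 81. Beside Lbhd2, Ppm1j, Stag3, Tmem40, Aldh3b2, Gldn, Slc22a3 and Lct, the lower side held Cbln4, Tle6, Peg10 and Hspb1. Anxa11 was at 47.4 to 67.7 CPM in wild type (median 55.4) and at 37.8 to 43.1 CPM in the labelled knockout (median 39.5). Anxa11, an annexin that tethers RNA granules to lysosomes, differed by -0.65 under vehicle and -0.36 under clozapine. Mfsd8, a lysosomal membrane protein, was at 13.4 to 15.9 CPM (median 14.6) in wild type and 9.79 to 11.4 CPM (median 10.1) in the labelled knockout, and differed by -0.59 under vehicle and -0.39 under clozapine. Chordc1 was at 47.4 to 53.1 CPM in wild type (median 49.6) and at 35.5 to 39.3 CPM in the labelled knockout (median 37.7). Chordc1, a co-chaperone of HSP90, differed by -0.38 under vehicle and -0.42 under clozapine. The genotypes did not overlap in Anxa11, Mfsd8 or Chordc1. Pcdha12, a clustered protocadherin, differed by -0.55 under vehicle and -0.55 under clozapine, and its value is uncertain because the alpha protocadherin genes share exons.

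Genes past the threshold on average but with opposite signs under the treatments numbered 50 and are not counted among the 1771. The interaction passed for 21 of them. Rtn4rl1, a receptor of the Nogo family, differed by -0.43 under vehicle and 0.02 under clozapine, and the serotonin receptor gene Htr2c by 0.82 under vehicle and -0.04 under clozapine. Adi1, an enzyme of methionine salvage, differed by 0.32 under vehicle and -0.996 under clozapine. Rtn4rl1 and Adi1 were chosen after their values were seen, and Adi1 passed on average in 4 of the 12 tests that each left out 1 library, those without wild-type libraries vehicle 4 and clozapine 2 or knockout libraries vehicle 2 and vehicle 5 (highest edgeR adjusted p = 0.1).

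Chaperones of the endoplasmic reticulum (ER) were lower in the labelled knockout. Secreted and membrane proteins fold in the ER, and a load of unfolded proteins there triggers the unfolded protein response, in which ATF6, IRE1 with XBP1, and PERK raise chaperones, disulfide isomerases and degradation factors. Of 25 tested genes of this response and of ER folding, 14 were lower (56.0%, against 10.2% of tested genes in either direction), with a median log2 difference of -0.18, -0.27 under vehicle and -0.10 under clozapine. Summed over the 25 genes, expression was 2566 to 3034 CPM in wild type and 2365 to 2461 CPM in the labelled knockout, without overlap. The count of lower genes was 12 to 14 when single libraries were left out. Under vehicle alone 14 of the 25 passed, against 9.16% of all tested genes. Under clozapine alone 0 passed, against 2.0%, a gap that was not tested over the list.

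Hspa5 was at 253 to 394 CPM in wild type (median 305) and at 218 to 244 CPM in the labelled knockout (median 227). Hspa5 (ENSMUSG00000026864.13, chromosome 2, 34771970 to 34777547) encodes BiP, the main HSP70 chaperone of the ER, and fell by a log2 difference of -0.45 (SE 0.04, edgeR adjusted p = 4.1e-06) without overlap between genotypes. Its difference was -0.74 under vehicle and -0.15 under clozapine, and the interaction passed (edgeR adjusted p = 0.0019). Calr was at 338 to 421 CPM in wild type (median 374) and at 302 to 324 CPM in the labelled knockout (median 309). Calr, the lectin chaperone calreticulin, differed by -0.27 (SE 0.03, edgeR adjusted p = 9.4e-05), also without overlap. Sdf2l1, a partner of BiP, had the largest fall of the list, -0.61 (SE 0.08, edgeR adjusted p = 0.00016), and its libraries overlapped. The ER chaperone Hyou1 differed by -0.29 (edgeR adjusted p = 0.001) and the HSP90 of the ER, Hsp90b1, by -0.15 (edgeR adjusted p = 0.021). Hsp90b1 passed in 9 of the 12 tests that each left out 1 library, missing without wild-type libraries vehicle 3 and clozapine 3 or knockout library clozapine 4 (highest edgeR adjusted p = 0.064).

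Of the disulfide isomerases, which form and reshuffle protein disulfide bonds, Pdia6 differed by -0.30 (SE 0.04, edgeR adjusted p = 0.00018), Pdia4 by -0.38 (SE 0.06, edgeR adjusted p = 0.00081) and Pdia3 by -0.17 (SE 0.03, edgeR adjusted p = 0.0021). Pdia6 was at 109 to 150.5 CPM in wild type (median 125) and at 99.5 to 112 CPM in the labelled knockout (median 101), so that the ranges overlapped. The BiP co-chaperones Dnajc3 and Dnajb11 differed by -0.24 (edgeR adjusted p = 0.0071) and -0.18 (edgeR adjusted p = 0.01), and the secreted ER factors Creld2 and Manf by -0.43 (edgeR adjusted p = 0.0013) and -0.31 (edgeR adjusted p = 0.0017). Xbp1, whose spliced form is a transcription factor of the response, was at 83.7 to 105 CPM (median 89.3) in wild type and 72.4 to 82.5 CPM (median 76.6) in the labelled knockout, and differed by -0.26 (SE 0.04, edgeR adjusted p = 0.0017). Sel1l, of the ER degradation complex, differed by -0.13 (edgeR adjusted p = 0.043) and passed in 3 of the 12 tests that each left out 1 library, those without wild-type libraries vehicle 1 and clozapine 5 or knockout library vehicle 4 (highest edgeR adjusted p = 0.11). The sensor genes did not pass: Atf6 differed by -0.19, Ern1 (IRE1) by -0.15 and Eif2ak3 (PERK) by 0.01 on the log2 scale. Trib3, Ddit3 and Atf4, genes of the PERK branch, had -0.35, -0.07 and -0.12 and did not pass either. The interaction passed for Hspa5, Pdia6, Pdia4 and Manf, each with the larger difference under vehicle, and the 3 wild-type vehicle libraries were the highest of the 12 for Hspa5. Exons of Pdia6, Manf, Hsp90b1 and, among genes below, Dnaja1, Jun, Nrxn2 and Sin3a overlap those of a gene on the opposite strand.

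The promoters of these genes can be read for the ER stress response element, CCAAT followed by any 9 bases and CCACG, the site at which ATF6 acts with the factor NF-Y. In RefSeq promoters (GRCm38.p6, 250 bases before to 50 after each transcription start) the element was found on either strand in 39 of 32851 promoters (0.119%). It was found in 7 of the 22 listed genes that have a promoter in that table, of which 6 were lower (Hspa5, Calr, Pdia6, Creld2, Dnajc3 and Hsp90b1) and Canx did not pass. The motifs here were chosen with the genes' differences known, and a match is a description, not a bound site. The promoters of 3 lower genes are printed 5′ to 3′ along the gene's strand, from chr2:34771840-34772139, plus strand (Hspa5), chr8:84846882-84847181, minus strand (Calr) and chr12:17266339-17266638, plus strand (Pdia6), with the element in capitals. The element lies 65 to 47 bases before the start in Hspa5, 162 to 144 before it on the opposite strand in Calr, and 98 to 80 before it in Pdia6.
Hspa5: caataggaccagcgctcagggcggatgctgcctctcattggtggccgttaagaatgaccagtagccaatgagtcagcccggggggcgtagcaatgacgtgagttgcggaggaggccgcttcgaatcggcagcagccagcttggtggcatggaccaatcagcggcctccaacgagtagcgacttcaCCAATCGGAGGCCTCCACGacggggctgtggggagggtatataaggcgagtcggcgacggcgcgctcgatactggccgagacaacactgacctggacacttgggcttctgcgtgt
Calr: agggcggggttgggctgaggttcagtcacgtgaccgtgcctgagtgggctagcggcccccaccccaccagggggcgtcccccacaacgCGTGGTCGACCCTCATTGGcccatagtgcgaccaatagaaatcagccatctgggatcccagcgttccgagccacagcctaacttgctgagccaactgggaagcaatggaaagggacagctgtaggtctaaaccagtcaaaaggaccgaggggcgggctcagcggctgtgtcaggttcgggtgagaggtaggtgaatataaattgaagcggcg
Pdia6: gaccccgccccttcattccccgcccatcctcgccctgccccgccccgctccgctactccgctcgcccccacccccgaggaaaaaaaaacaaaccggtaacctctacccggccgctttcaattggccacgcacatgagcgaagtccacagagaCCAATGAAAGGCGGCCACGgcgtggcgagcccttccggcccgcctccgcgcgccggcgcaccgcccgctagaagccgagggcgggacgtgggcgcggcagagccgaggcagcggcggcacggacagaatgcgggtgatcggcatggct

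Cytosolic heat shock proteins were lower in part. These chaperones fold proteins outside the ER and are raised by the factor HSF1 when proteins misfold. Of 19 tested genes 8 were lower (42.1%, against 4.82% of all tested genes lower and 10.2% in either direction), with a median log2 difference of -0.07, and their summed expression was 5673 to 6114 CPM in wild type and 5260 to 5593 CPM in the labelled knockout. Hspb1 was at 8.86 to 14.9 CPM in wild type (median 11.3) and at 6.18 to 7.41 CPM in the labelled knockout (median 6.76). Hspb1, a small heat shock protein, fell by a log2 difference of -0.75 (SE 0.08, edgeR adjusted p = 5.3e-05) without overlap. Hspa8 was at 1658 to 1849 CPM in wild type (median 1736) and at 1402 to 1574 CPM in the labelled knockout (median 1496). Hspa8, the constitutive HSP70, differed by -0.23 (SE 0.04, edgeR adjusted p = 0.0017), and its partners Hsph1 and Dnaja1 by -0.24 (edgeR adjusted p = 0.00075) and -0.17 (edgeR adjusted p = 0.003). Inducible Hspa1b differed by -0.44 (edgeR adjusted p = 0.0069). Hspa1a and Hspa1b are near-identical, so reads may have been shared between them, and Hspa1a passed in 5 of the 12 tests that each left out 1 library, those without wild-type libraries vehicle 4, clozapine 3 and clozapine 5 or knockout libraries vehicle 5 and clozapine 3 (highest edgeR adjusted p = 0.091). Hsf1 itself differed by -0.21 (edgeR adjusted p = 0.019) and passed in 9 of the 12 tests that each left out 1 library, missing without wild-type library vehicle 3 or knockout libraries vehicle 2 and clozapine 3 (highest edgeR adjusted p = 0.058). Hsp90aa1 and Hsp90ab1, the cytosolic HSP90 genes, had log2 differences of -0.0016 and 0.021 and did not pass.

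Of the genes of cholesterol synthesis and its regulation, those that passed were higher. The pathway builds cholesterol from acetyl-CoA through mevalonate and is switched on by SREBP2 when ER cholesterol is low. Of 25 tested genes 9 were higher (36.0%, against 5.43% of all tested genes higher and 10.2% in either direction), with a median log2 difference of 0.13, 0.29 under vehicle and 0.02 under clozapine, and summed expression of 1332 to 1588 CPM in wild type and 1456 to 1610 CPM in the labelled knockout, with overlap. Under vehicle alone 16 of the 25 passed, against 9.16% of all tested genes, and under clozapine alone 1, against 2.0%, a gap that was not tested over the list. Mvk and Mvd, the first and last enzymes from mevalonate to isopentenyl diphosphate, rose by 0.24 (edgeR adjusted p = 0.0074) and 0.31 (edgeR adjusted p = 0.0015), and their genotypes did not overlap. Lss, which closes the sterol rings, rose by 0.19 (edgeR adjusted p = 0.01). Dhcr7, a late enzyme on the way to cholesterol, was at 24.03 to 28.9 CPM (median 26.6) in wild type and 30.5 to 33.6 CPM (median 32.03) in the labelled knockout, and rose by 0.26 (SE 0.05, edgeR adjusted p = 0.0021) without overlap.

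Among regulators of the pathway, Insig1, which holds SREBP in the ER, rose by 0.32 (SE 0.05, edgeR adjusted p = 0.00081). Srebf2, the gene of SREBP2, had a log2 difference of -0.09 and did not pass. Msmo1, an enzyme that removes methyl groups from sterols, rose by 0.19 (edgeR adjusted p = 0.016), with 0.37 under vehicle and 0.0074 under clozapine. It passed in 11 of the 12 tests that each left out 1 library, missing without wild-type library vehicle 3 (highest edgeR adjusted p = 0.052).

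Clock genes changed in both directions. The circadian clock is a loop in which BMAL1 (Arntl) with CLOCK or NPAS2 drives E-box genes, among them the PER, CRY and REV-ERB (Nr1d1) repressors and output factors such as DBP, while REV-ERB represses and ROR raises Arntl. Of 19 tested genes 4 were higher (Dbp, Ciart, Nr1d1 and Bhlhe41) and 4 lower (Arntl, Npas2, Nfil3 and Clock), which is 42.1% against 10.2% of all tested genes, with a median log2 difference of 0.02. All 8 passed in each test that left out 1 library. The hour of dissection is not given, so for these genes genotype and hour cannot be told apart.

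Arntl, Npas2 and Clock, of the activating side, were lower, as was the repressor Nfil3. Arntl was at 36.02 to 43.7 CPM in wild type (median 40.7) and at 28.5 to 32.9 CPM in the labelled knockout (median 30.5). Arntl fell by a log2 difference of -0.40 (SE 0.05, edgeR adjusted p = 0.0001), with -0.32 under vehicle and -0.49 under clozapine. Npas2 was at 42.4 to 58.02 CPM (median 52.8) in wild type and 32.9 to 41.2 CPM (median 36.1) in the labelled knockout, and differed by -0.47 (SE 0.06, edgeR adjusted p = 0.00013). The genotypes overlapped in neither gene. Clock differed by -0.26 (SE 0.05, edgeR adjusted p = 0.0023), with overlap. Nfil3, a repressor at the sites that DBP activates, was at 10.1 to 17.99 CPM (median 12.99) in wild type and 8.15 to 10.03 CPM (median 8.84) in the labelled knockout, and differed by -0.55 (SE 0.09, edgeR adjusted p = 0.00095).

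On the output and repressor side, Dbp was at 61.5 to 107 CPM in wild type (median 81.5) and at 112 to 140.3 CPM in the labelled knockout (median 119). Dbp rose by 0.62 (SE 0.05, edgeR adjusted p = 1.6e-06), and the difference was 0.22 under vehicle and 1.03 under clozapine (interaction, edgeR adjusted p = 0.0019). Ciart was at 10.2 to 16.6 CPM in wild type (median 13.4) and at 17.8 to 27.8 CPM in the labelled knockout (median 25.8). Ciart, a repressor of CLOCK and BMAL1, rose by 0.86 (SE 0.10, edgeR adjusted p = 0.00021). Bhlhe41, an E-box repressor, rose by 0.32 (SE 0.05, edgeR adjusted p = 0.00052). The genotypes did not overlap in Dbp, Ciart or Bhlhe41. Nr1d1 differed by 0.03 under vehicle and 0.55 under clozapine, with 0.29 (SE 0.04, edgeR adjusted p = 0.00036) on average and overlap between genotypes. Per1, Per2, Per3, Cry1 and Cry2 did not pass, with log2 differences of 0.27, -0.15, 0.01, -0.06 and 0.06. In wild-type clozapine libraries Dbp, Ciart and Nr1d1 were lower than in every other library. Exons of Dbp overlap those of Sphk2, exons of Nr1d1 those of Thra and exons of Bhlhe41 those of a predicted gene, each on the opposite strand.

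**Figure D3:**
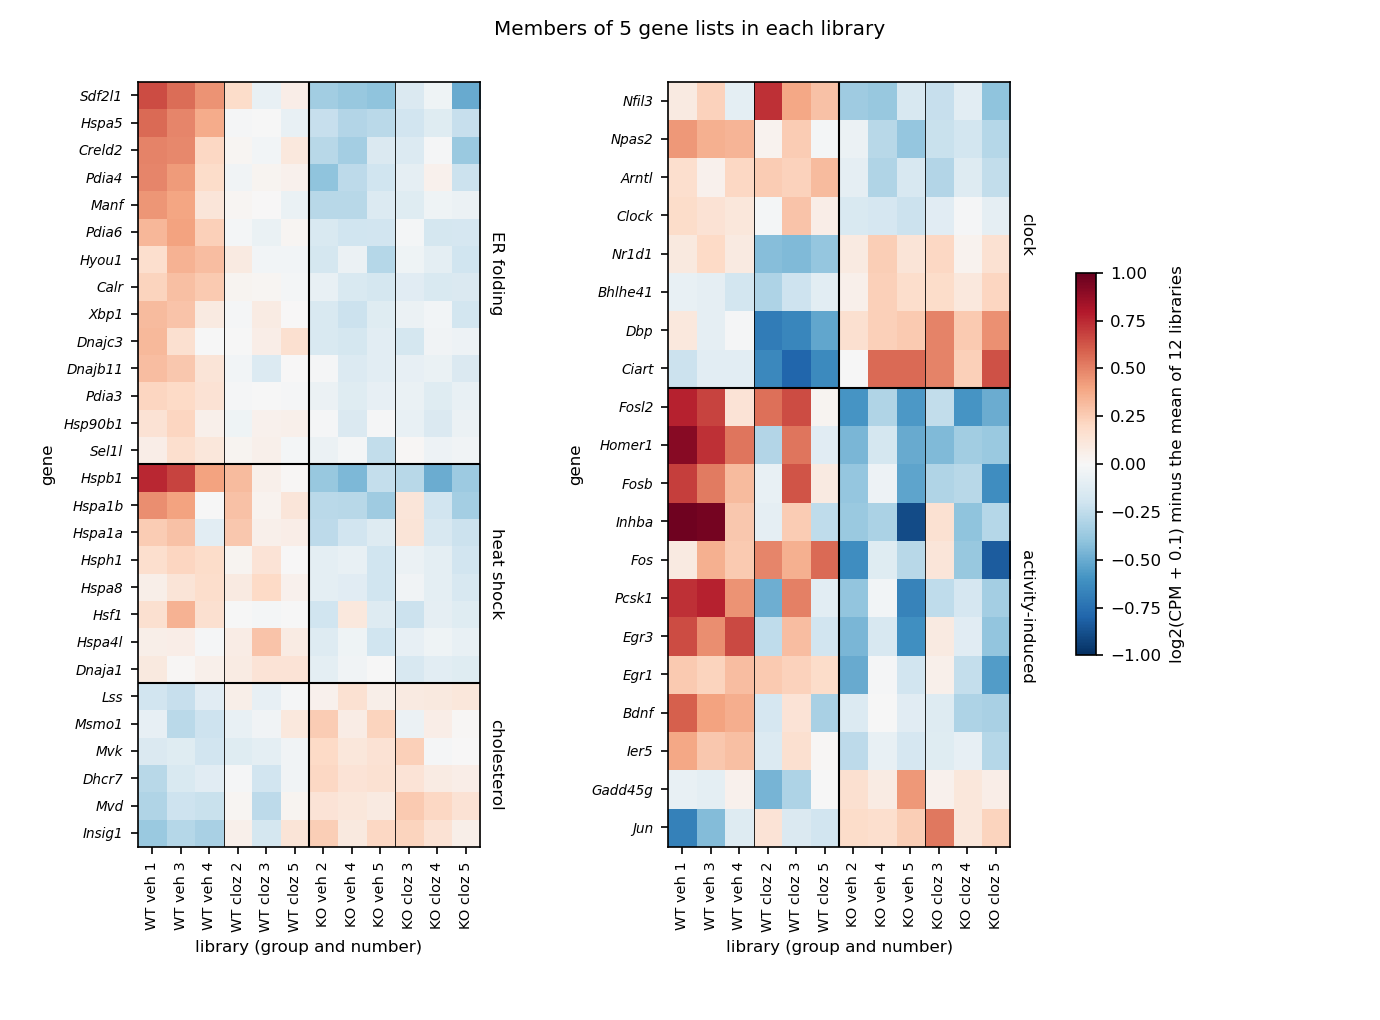
Log2(CPM + 0.1) of each gene minus its mean over the 12 libraries (colour, from -1 in blue to 1 in red, with values beyond shown at the ends), for described genes past the threshold with the same sign in 5 lists (rows) and each library (columns; WT, wild type; KO, labelled knockout; veh, vehicle; cloz, clozapine). Most of the 14 ER folding genes are reddest in the wild-type vehicle columns, and Dbp, Ciart and Nr1d1 are bluest in the 3 wild-type clozapine columns.

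Canonical E-boxes, CACGTG, were found in 2349 of the 32851 RefSeq promoters (7.15%) and in 5 of 17 clock genes with a promoter, of which Ciart and Bhlhe41 were higher and Per1, Tef and Cry1 did not pass. Ciart carries 3 of them. The ROR response element, bound by REV-ERB and ROR and searched on both strands, was found in 143 promoters (0.435%) and in 1 of the 17 clock genes, Arntl, at 28 to 37 bases after the start. The promoters of Ciart (chr3:95882179-95882478, minus strand) and of Arntl (chr7:113207261-113207560, plus strand), 1 gene that rose and 1 that fell, are printed with these motifs in capitals. They have the same form and build as those above.
Ciart: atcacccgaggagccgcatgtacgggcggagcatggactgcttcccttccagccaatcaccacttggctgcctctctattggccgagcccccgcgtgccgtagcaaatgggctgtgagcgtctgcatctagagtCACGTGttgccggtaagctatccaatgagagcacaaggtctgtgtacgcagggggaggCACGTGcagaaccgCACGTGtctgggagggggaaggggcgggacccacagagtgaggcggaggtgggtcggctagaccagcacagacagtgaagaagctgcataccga
Arntl: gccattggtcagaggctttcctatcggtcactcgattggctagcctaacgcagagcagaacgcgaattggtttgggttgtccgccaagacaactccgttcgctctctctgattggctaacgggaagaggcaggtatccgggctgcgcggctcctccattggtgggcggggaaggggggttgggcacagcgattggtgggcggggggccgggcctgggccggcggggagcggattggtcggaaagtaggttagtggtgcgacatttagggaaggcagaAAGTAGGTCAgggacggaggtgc

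Genes induced by neuronal activity were more often lower than higher. Synaptic input and calcium entry switch on these genes within minutes to hours, first transcription factors such as FOS and EGR1 and then effectors at synapses. Of 29 tested genes 10 were lower and 2 higher (41.4%, against 10.2% of all tested genes). A negative sign was seen for 25, and the median log2 difference was -0.34, against -0.0033 over all tested genes. The median was -0.41 under vehicle and -0.17 under clozapine. Under vehicle alone 9 of the 29 passed, against 9.16% of all tested genes. Under clozapine alone 0 passed, against 2.0%, a gap that was not tested over the list. Libraries spread widely: summed expression was 2239 to 2937 CPM in wild type and 1834 to 2442 CPM in the labelled knockout, with overlap. Among the transcription factors, Fos was at 21.02 to 29.3 CPM in wild type (median 25.3) and at 11.1 to 21.6 CPM in the labelled knockout (median 15.8). Fos differed by -0.68 (SE 0.15, edgeR adjusted p = 0.017), with overlap, and Fosb by -0.74 (SE 0.14, edgeR adjusted p = 0.0064). Egr1 was at 286 to 313 CPM in wild type (median 299) and at 172 to 261 CPM in the labelled knockout (median 217). Egr1 fell by a log2 difference of -0.47 (SE 0.10, edgeR adjusted p = 0.019), without overlap. Egr3 differed by -0.55 (edgeR adjusted p = 0.028) and passed in 7 of the 12 tests that each left out 1 library, missing without wild-type libraries vehicle 1 and vehicle 4 or knockout libraries vehicle 2, vehicle 5 and clozapine 4 (highest edgeR adjusted p = 0.066).

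Among the effectors, Homer1 was at 196 to 450.3 CPM in wild type (median 347) and at 169 to 212 CPM in the labelled knockout (median 181). Homer1, whose short form loosens the postsynaptic scaffold, differed by -0.79 (SE 0.14, edgeR adjusted p = 0.01), with -1.10 under vehicle and -0.47 under clozapine. Bdnf was at 24.6 to 46.7 CPM in wild type (median 36.8) and at 24.6 to 30.6 CPM in the labelled knockout (median 28.1). Bdnf, a neurotrophin, differed by -0.34 (SE 0.07, edgeR adjusted p = 0.0068), with overlap. Inhba, the activin subunit, differed by -0.73 (SE 0.16, edgeR adjusted p = 0.01) and passed under vehicle but not under clozapine (-1.31 under vehicle and -0.15 under clozapine, edgeR adjusted p = 0.0030 and 0.81), and the interaction did not pass (edgeR adjusted p = 0.13). Pcsk1, a protease of neuropeptide precursors, differed by -0.64 (edgeR adjusted p = 0.049) and passed in 3 of the 12 tests that each left out 1 library, those without wild-type libraries clozapine 2 and clozapine 3 or knockout library vehicle 4 (highest edgeR adjusted p = 0.11). Jun and Gadd45g went the other way, at 0.48 (edgeR adjusted p = 0.015) and 0.30 (edgeR adjusted p = 0.023). Gadd45g passed in 7 of the 12 tests that each left out 1 library, missing without wild-type libraries vehicle 3, clozapine 2 and clozapine 3 or knockout libraries vehicle 5 and clozapine 4 (highest edgeR adjusted p = 0.061). Arc, Npas4 and Nr4a1 had log2 differences of -0.40, -0.55 and -0.34 and did not pass.

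Synapse genes passed at shares not far from that of all tested genes, in both directions. Of 42 tested genes of the excitatory synapse 4 were higher and 2 lower (14.3%, against 10.2% of all tested genes). The lower ones were Shank2 and Homer1, and Homer1 is also counted among the activity-induced genes. Grin2d was at 27.99 to 33.9 CPM in wild type (median 31.8) and at 41.05 to 48.4 CPM in the labelled knockout (median 43.3). Grin2d, an NMDA receptor subunit, rose by 0.49 (SE 0.05, edgeR adjusted p = 4.1e-05) without overlap, with 0.44 under vehicle and 0.54 under clozapine. Grm2, the presynaptic metabotropic glutamate receptor, rose by 0.34 (SE 0.07, edgeR adjusted p = 0.0056), and Grik5, a kainate receptor subunit, by 0.15 (edgeR adjusted p = 0.0075). For Grik5 the difference was 0.04 under vehicle and 0.25 under clozapine. Shank2, a postsynaptic scaffold, differed by -0.34 (SE 0.05, edgeR adjusted p = 0.001), with -0.59 under vehicle and -0.09 under clozapine. Of 33 presynaptic genes 2 were higher and 1 lower (9.09%). Nrxn2, a neurexin, rose by 0.23 (edgeR adjusted p = 0.0031), with 0.08 under vehicle and 0.38 under clozapine. Rims1, of the active zone, differed by -0.19 (edgeR adjusted p = 0.012), with -0.36 under vehicle and -0.009 under clozapine. Camk2a, whose promoter drives Cre in these mice, did not pass (log2 difference 0.08, edgeR adjusted p = 0.25).

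Of 29 tested monoamine, muscarinic and histamine receptor genes, a family that holds targets of clozapine, 3 were higher and 4 lower (24.1%, against 10.2% of all tested genes). Htr2a, the serotonin 2A receptor, was at 17.7 to 22.4 CPM (median 18.5) in wild type and 19.4 to 38.95 CPM (median 30.6) in the labelled knockout, and rose by 0.65 (SE 0.15, edgeR adjusted p = 0.021). It passed in 9 of the 12 tests that each left out 1 library, missing without wild-type libraries vehicle 3 and clozapine 3 or knockout library clozapine 3 (highest edgeR adjusted p = 0.058). Hrh3, the presynaptic histamine receptor, rose by 0.38 (SE 0.07, edgeR adjusted p = 0.0058) and Hrh1 differed by -0.33 (SE 0.07, edgeR adjusted p = 0.0051). Under vehicle these were 0.20 for Hrh3 and -0.56 for Hrh1, and under clozapine 0.56 and -0.10. Adra2c and Adra1d, adrenergic receptors, differed by -0.27 (edgeR adjusted p = 0.0014) and -0.27 (edgeR adjusted p = 0.01). In the same order they differed by -0.49 and -0.46 under vehicle, and by -0.05 and -0.07 under clozapine. Chrm2, a muscarinic receptor, differed by -0.56 (edgeR adjusted p = 0.027) and passed in 3 of the 12 tests that each left out 1 library, those without wild-type libraries vehicle 4 and clozapine 5 or knockout library clozapine 5 (highest edgeR adjusted p = 0.067). Drd5, a dopamine receptor at about 1 CPM, differed by 0.69 (edgeR adjusted p = 0.043) and passed in 3 of the 12 tests that each left out 1 library, those without wild-type libraries vehicle 4 and clozapine 5 or knockout library vehicle 5 (highest edgeR adjusted p = 0.11). Exons of Hrh3, Adra1d and Chrm2 overlap those of genes on the opposite strand.

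Deacetylases and the partners of HDAC2 were looked at next. Of 11 deacetylase genes 2 were lower (18.2%, against 10.2% of all tested genes in either direction). Both are class IIa enzymes. Of the other genes of that class, Hdac9 had a log2 difference of 0.22 and Hdac7 of -0.24, and neither passed. Hdac4 differed by -0.26 (SE 0.04, edgeR adjusted p = 0.0014), with -0.43 under vehicle and -0.10 under clozapine. Hdac5 differed by -0.16 (edgeR adjusted p = 0.018), with -0.28 under vehicle and -0.03 under clozapine. Hdac5 passed in 8 of the 12 tests that each left out 1 library, missing without wild-type libraries vehicle 3 and clozapine 3 or knockout libraries vehicle 2 and clozapine 3 (highest edgeR adjusted p = 0.056). Under vehicle alone 2 of the 11 genes passed, against 9.16% of all tested genes, and under clozapine alone 0, against 2.0%. Hdac1, the close relative of Hdac2, had a log2 difference of 0.13 and did not pass. Of 31 tested subunits of HDAC1/2 complexes 3 were higher (9.68%): Kdm1a, the demethylase of CoREST, by 0.15 (edgeR adjusted p = 0.013), Sin3a by 0.18 (edgeR adjusted p = 0.016) and the NuRD helicase gene Chd3 by 0.15 (edgeR adjusted p = 0.03). Chd3 passed in 5 of the 12 tests that each left out 1 library, those without wild-type libraries vehicle 4 and clozapine 2 or knockout libraries vehicle 5, clozapine 4 and clozapine 5 (highest edgeR adjusted p = 0.081).

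Markers of cell types held a share of differing genes near that of all genes. Over 16 marker lists with 150 tested entries, 6 were higher and 8 lower (9.33%, against 10.2% of all tested genes), and 8 lists had none. Oligodendrocyte markers, of the cells that make myelin, had 3 of 12 lower (Ermn, Ugt8a and Myrf) and a median log2 difference of -0.14. The median was -0.04 under vehicle and -0.29 under clozapine, and 7 of the 12 had the same sign under both. Under vehicle alone 0 of the 12 passed and under clozapine alone 1. Their summed levels were 1786 to 2342 CPM in wild type and 1463 to 2023 CPM in the labelled knockout, with overlap. Ermn was at 19.1 to 31.5 CPM in wild type (median 23.7) and at 13.4 to 20.4 CPM in the labelled knockout (median 17.1). Ermn, the myelin protein ermin, differed by -0.48 (SE 0.10, edgeR adjusted p = 0.0072). Myrf passed in 10 of the 12 tests that each left out 1 library, missing without wild-type library clozapine 3 or knockout library clozapine 3 (highest edgeR adjusted p = 0.051). Markers of oligodendrocyte precursors had 2 of 9 higher and 1 lower, with Pdgfra at 0.30 (edgeR adjusted p = 0.00068). Microglial markers had 2 of 12 higher and endothelial markers 2 of 10 lower. Excitatory neuron markers had 1 of 11 lower, with sums of 9683 to 10943 CPM and 9317 to 11055 CPM, and interneuron markers had 1 of 15 higher. All 11 excitatory neuron markers were expressed, with means of 43.1 to 4077 CPM, in tissue labelled as frontal cortex. Of choroid plexus markers 5 of 8 had enough counts to be tested, and their sum reached 60.6 CPM in wild-type vehicle 3 against 3.26 to 9.95 CPM in the other libraries. The part of cell makeup in the differences above was not tested.

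**Figure D4:**
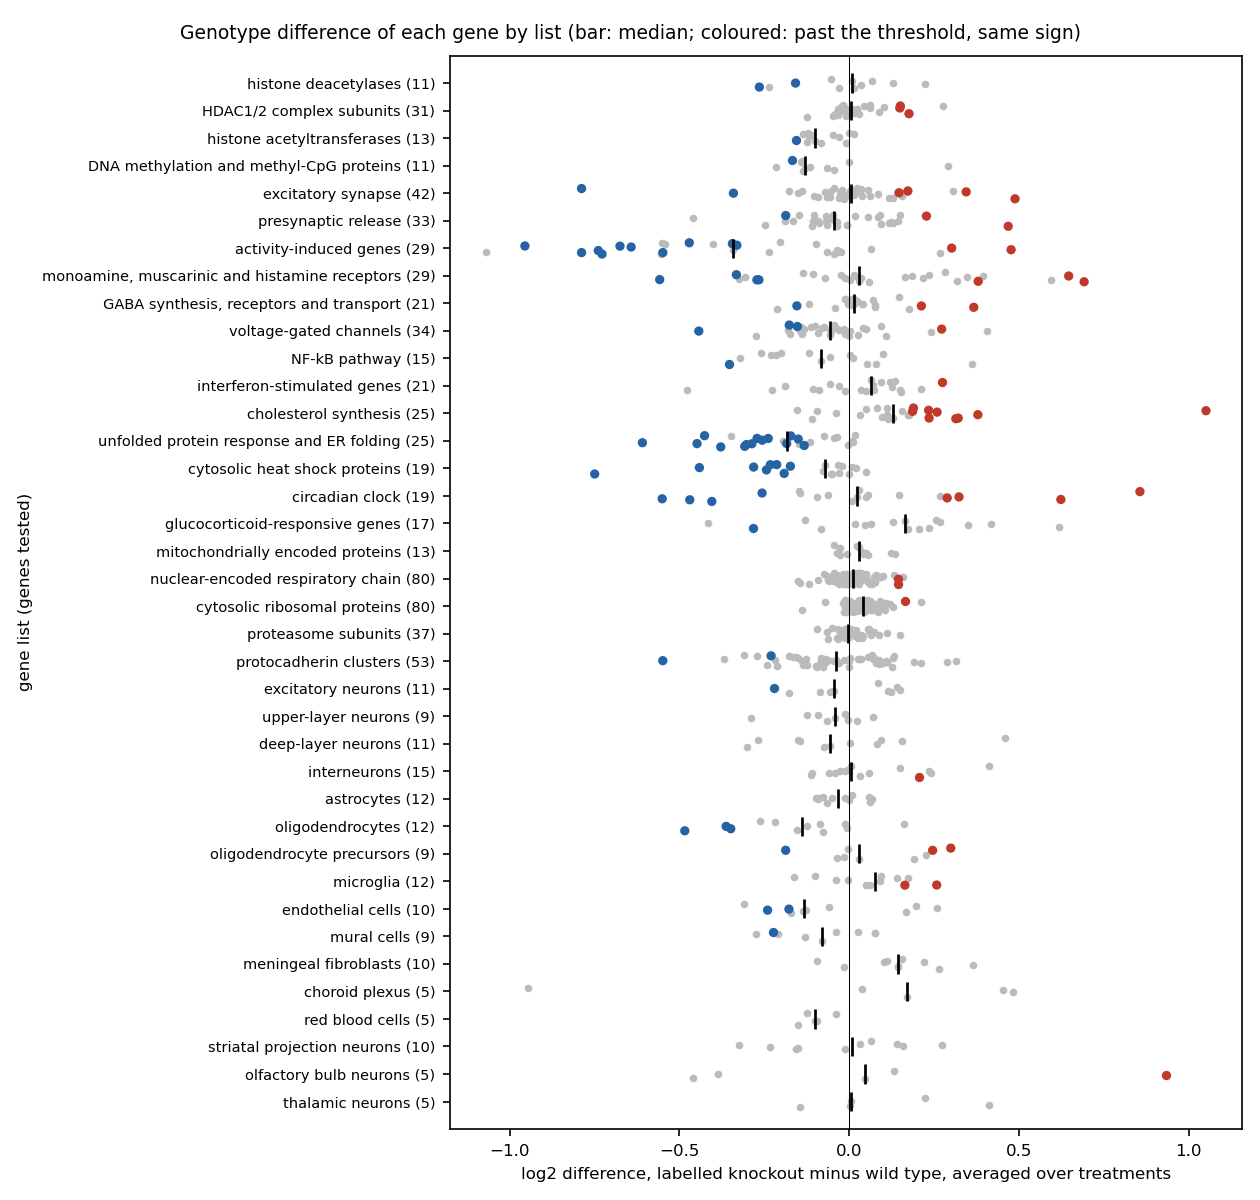
Log2 difference between labelled knockout and wild type averaged over treatments (x axis) of each tested gene (points; vertical jitter within a row carries no value) in 38 gene lists (rows, with the number of tested genes). Coloured points are past the threshold with the same sign under both treatments (red higher, blue lower), bars are medians: the bar lies at -0.34 for activity-induced genes, at -0.18 for ER folding and at 0.13 for cholesterol synthesis.

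The remaining lists are set against the 10.2% of all tested genes. Of 21 genes of GABA synthesis, receptors and transport 2 were higher and 1 lower (14.3%), and of 34 voltage-gated channel genes 1 was higher and 3 were lower (11.765%). Of the 34 channel genes 25 had a negative sign. Their median log2 difference was -0.06, with -0.15 under vehicle and 0.04 under clozapine. Under vehicle alone 10 of the 34 passed, against 9.16% of all tested genes, and under clozapine alone 0, against 2.0%. Kcna1, a potassium channel of axons, differed by -0.44 (SE 0.10, edgeR adjusted p = 0.016). Of 13 histone acetyltransferase genes 1 was lower (Crebbp), as was 1 of 11 genes of DNA methylation and methyl-CpG binding (Dnmt3a). Crebbp passed in 4 of the 12 tests that each left out 1 library, those without wild-type library clozapine 5 or knockout libraries vehicle 2, vehicle 4 and clozapine 5 (highest edgeR adjusted p = 0.1). Dnmt3a passed in 6 of the 12 tests that each left out 1 library, missing without wild-type libraries vehicle 3, clozapine 3 and clozapine 5 or knockout libraries vehicle 2, clozapine 3 and clozapine 5 (highest edgeR adjusted p = 0.074). Of 17 glucocorticoid-responsive genes 1 was lower, Nr3c1, the glucocorticoid receptor itself, at -0.28 (edgeR adjusted p = 0.0011). The list as a whole leaned the other way, with 13 positive and 4 negative signs. Its median log2 difference was 0.16, against -0.0033 over all tested genes. Of 15 NF-kB genes 1 was lower and of 21 interferon-stimulated genes 1 was higher. Of 53 protocadherin genes 2 were lower. Lists of cell maintenance had few: 2 of 80 nuclear-encoded respiratory chain genes and 1 of 80 cytosolic ribosomal protein genes were higher, and 0 of 37 proteasome and 0 of 13 mitochondrially encoded genes passed edgeR's test. At an unadjusted p under 0.05 those were 2 and 0, and DESeq2 and limma-voom called 0 in each. Of the 80 ribosomal protein genes 67 had a positive sign and 13 a negative one, with a median log2 difference of 0.04. That median was -0.0033 over all tested genes and 0.04 in the shortest of 10 equal bins of tested genes by exonic length. The sign was the same under both treatments for 46 of the 80, where 59.3% of all tested genes had the same sign. The widest gaps between DESeq2 and edgeR in the number called were in 3 lists: 7 against 3 presynaptic genes, 8 against 4 voltage-gated channel genes and 5 against 1 glucocorticoid-responsive gene.

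Genes near Hdac2 on chromosome 10 were looked at because an allele made in other mice can bring its neighbours along. Within 20 Mb of Hdac2 151 genes were tested, of which 7 were higher and 6 lower (8.61%, against 10.2%), with a median log2 difference of -0.00078. The largest was Rsph4a, a cilium protein, at 1.09 (SE 0.16, edgeR adjusted p = 0.00059), and Tpd52l1 rose by 0.42 (SE 0.06, edgeR adjusted p = 0.00033). Over 20 chromosomes the share of the 1771 among tested genes ran from 8.49% to 12.2%.

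Higher genes were shorter and richer in GC than lower ones. Median exonic length was 3721 bases for higher genes, 5923 for lower genes and 4004 for all tested genes. Median GC content was 53.6%, 49.7% and 50.2%, and median expression 17.7, 42.4 and 15.9 CPM, in the same order. With tested genes cut into 10 bins of equal size, 59 were higher and 180 lower in the bin of greatest exonic length, and 127 were higher and 35 lower in the second bin from the shortest. In the bin of highest GC content, 178 were higher and 79 lower. Across the 17216 genes with a length, which are not independent replicates, the log2 difference had a Spearman correlation of -0.162 with exonic length. The correlation was 0.115 with GC content, over genes with a GC value, and -0.0972 with expression, over all 17286 tested genes. After a smooth correction of each library for length and GC content, 1925 genes passed, and 1535 of the 1771 were among them.

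**Figure D5:**
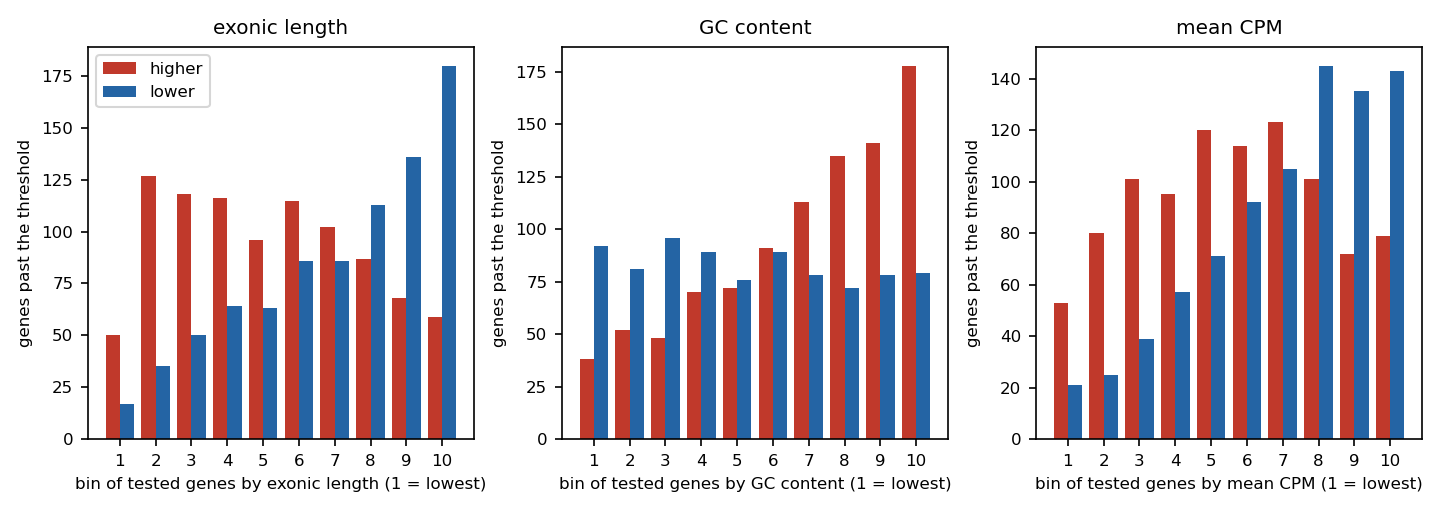
Number of genes past the threshold with the same sign under both treatments (y axis, from 0) in 10 equal bins of the tested genes by exonic length, GC content of exons and mean CPM (x axes, 1 = lowest); red, higher in the labelled knockout, blue, lower. Blue bars grow with length, to 180 in the last bin, and red bars grow with GC content, to 178.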

How the data were processed

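RNA from 12 frontal cortex libraries was sequenced by the authors. The submitters' processing notes name STAR 2.5.1b, featureCounts and GRCm38. The authors deposited estimated counts for each gene, of which 7.39% were not whole, and these were rounded for the tests; strand and the sharing of reads are not given in the sources used here. Names, lengths and GC content came from GENCODE M21 (46574 of 47069 genes). Genes passing filterByExpr (17286, 99.9% of counts) were fitted as 4 groups with edgeR 4.0.16 (R 4.3.3; TMM, robust quasi-likelihood, BH over all tested genes, threshold 0.05), and the mean of both labelled knockout groups was tested against that of both wild-type groups. Libraries of 1 group differed by 4.26 to 9.97 in chi-square per gene, more than counting error.

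Members and the 38 gene lists (22 of pathways, 16 of cell types) were chosen with earlier results of these data known. Named genes are the 12 largest differences in each direction without overlap and with a mean of at least 1 CPM, the 8 largest in each direction called under both treatments, and up to 4 per list; all other list genes named, and those marked so, were chosen after their values were seen. Some genes that these rules name are not reported here. On simulated counts over 17286 genes the averaged contrast recovered 60% of 50 genes changed 1.25-fold, 94% at 1.5-fold and 100% at 2-fold and 3-fold, with 7 false calls. The changed genes had means of at least 1 CPM. All 1.25-fold and 2-fold changes were rises and all 1.5-fold and 3-fold changes falls, so size and direction cannot be told apart. Genes were drawn independently and without a treatment effect, so these rates need not hold for the real counts. Alternatives were DESeq2 1.42.0, limma-voom (limma 3.58.1), RLE size factors, other filters, an additive design, a replicate block, 1 surrogate variable (sva 3.50.0), the length and GC correction, unrounded counts, a threshold of 0.10 and leaving out each library.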

Additional observations from a re-analysis of the deposited data

Results flagged for a closer look

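For 16 named genes the genotype difference itself differed between the treatments by edgeR's interaction test, given here as the log2 difference under clozapine minus that under vehicle. Chaperone genes of the ER had a smaller fall under clozapine: Hspa5 by 0.59 (edgeR adjusted p = 0.0019), Pdia4 by 0.56 (0.039), Manf by 0.49 (0.043) and Pdia6 by 0.41 (0.031). The clock genes Dbp and Nr1d1 had a larger rise under clozapine, Dbp by 0.81 (0.0019) and Nr1d1 by 0.52 (0.010). In both genes the wild-type clozapine libraries were the lowest of the 12.

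Falls were also smaller under clozapine for Zbtb40 (interaction 0.77, edgeR adjusted p = 0.034), Fmnl1 (0.52, 0.042), Pde7b, a cAMP phosphodiesterase near Hdac2 (0.52, 0.040), Rims3 (0.50, 0.036), Shank2 (0.50, 0.048) and Adra2c (0.44, 0.039). The rise of Hpcal1 was smaller under clozapine (-0.60, 0.036). Rtn4rl1 (0.45, 0.0055), Htr2c (-0.86, 0.039) and Adi1 (-1.32, 0.015) had opposite signs under the treatments. The interaction count moved most with the processing, from 12 to 368 genes.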

How the results depend on the processing

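The number of genes called on average was 1289 to 2369 over the alternative tests, scalings, filters and designs at the same threshold, and 2782 at a threshold of 0.10, where 1392 were lower and 2669 had the same sign under both treatments. At that threshold 282 genes passed under both treatments separately, 2480 under vehicle, 697 under clozapine and 258 for the interaction. With no low-count filter the genes called under both treatments were 216, under clozapine 566 and for the interaction 302. With 1 surrogate variable these counts were 234, 547 and 290. DESeq2 called 545 under clozapine and 368 for the interaction, and the length and GC correction left 43 for the interaction. DESeq2 also called 1585 of the 1771 genes and limma-voom 1675. The cause of these shifts was not tested.

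Leaving out single libraries gave 1152 to 1870 genes on average (644 to 1023 higher, 508 to 875 lower), 1124 to 1820 with the same sign, 34 to 156 under both treatments, 617 to 1722 under vehicle, 59 to 425 under clozapine and 13 to 181 for the interaction. The count was 1152 without knockout clozapine 3, and the lower genes were 508 without it, 530 when wild-type vehicle 3 was left out and 577 when knockout vehicle 2 was. Such tests have fewer libraries, and they leave 2 in 1 group.

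Same-numbered libraries did not deviate together more than others (10 pairs, correlations of -0.0803 to 0.123, against -0.208 to 0.15 for different numbers). With 3 libraries in a group, a modest effect shared by a number could not be seen this way. With the number as a replicate block, 1289 genes passed on average, 56 under both treatments, 385 under vehicle, 328 under clozapine and 12 for the interaction.

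Among named genes, called genes kept their sign and side of the threshold in 3417 values under alternatives and kept their sign but fell short of the threshold in 332. The red blood cell genes Hbb-bt (-0.15) and Hba-a1 (-0.12), neither called, reversed in sign with the replicate block (0.063 and 0.050), without wild-type clozapine 3 (0.11 and 0.091) and, for Hba-a1, without knockout clozapine 5 (0.02). Leaving out single libraries gave -0.33 to 0.11 for Hbb-bt and -0.29 to 0.091 for Hba-a1. Low expression limits precision: 76 higher and 30 lower genes had means under 1 CPM.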

Other observations

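Several genes known best from striated muscle or heart were among the higher genes at low expression. They were chosen after their values were seen, form no list, and were given no test beyond each gene's own. Dysf, a membrane repair protein, was at 2.83 to 4.53 CPM (median 4.28) in wild type and 6.896 to 11.9 CPM (median 7.45) in the labelled knockout, a log2 difference of 1.09 (SE 0.13, edgeR adjusted p = 0.00012). Actn3 was at 0.627 to 1.35 CPM in wild type (median 1.01) and at 1.74 to 2.01 CPM in the labelled knockout (median 1.93). Actn3, the actinin of fast muscle fibres, differed by 0.98 (SE 0.15, edgeR adjusted p = 0.00078). Trim72, a membrane repair partner of Dysf, differed by 1.12 (edgeR adjusted p = 0.0012), Jsrp1, of the junctional sarcoplasmic reticulum, by 0.81 (edgeR adjusted p = 0.00013), and Pgam2, the muscle phosphoglycerate mutase, by 0.74 (edgeR adjusted p = 0.00076). Hcn4, the pacemaker channel gene of the heart, was at 1.34 to 2.15 CPM (median 1.69) in wild type and 2.21 to 4.57 CPM (median 3.17) in the labelled knockout, and differed by 0.88 (edgeR adjusted p = 0.0025).

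Single genes of other roles, also chosen after their values were seen, differed as follows. Esr1, the estrogen receptor alpha, was at 1.14 to 2.06 CPM (median 1.28) in wild type and 2.15 to 3.32 CPM (median 2.89) in the labelled knockout, a log2 difference of 0.97 (SE 0.16, edgeR adjusted p = 0.0011). Ngb was at 2.97 to 5.87 CPM in wild type (median 4.604) and at 6.85 to 9.35 CPM in the labelled knockout (median 8.17). Ngb, neuroglobin, differed by 0.86 (SE 0.12, edgeR adjusted p = 0.00037). Hrk, a BH3-only protein of neuronal apoptosis, differed by 0.83 (SE 0.09, edgeR adjusted p = 0.00026) and Lrrk2, a kinase gene of familial Parkinson's disease, by -0.48 (SE 0.08, edgeR adjusted p = 0.0027). Col4a1, a collagen of vascular basement membranes, differed by -0.37 (SE 0.06, edgeR adjusted p = 0.0018).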
